A study of Mus musculus with 2 samples.

Results

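The genes described here are 5 cytoskeleton genes that mark steps of the neuronal lineage: Nes for progenitors, Dcx, Dcamkl1 (now Dclk1) and Stmn1 for migrating neuroblasts, and Mtap2 (now Map2) for mature neurons. They were chosen by gene symbol, and they are 5 of the 263 genes other than controls on the membrane array. RNA came from the subventricular zone of mice at postnatal day 60, dissected 4 days after the corpus callosum had been injected with lysolecithin, which demyelinates axons, or with NaCl as the control. Each group is 1 sample on 1 array, so no difference has a replicate or a test. The deposited workbook tags both arrays WT, a tag the sample titles do not carry. The labels do not give a strain, the sex or how many animals went into a sample.

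The subventricular zone lines the lateral ventricle and goes on making neurons in adult mice. Its progenitors carry the intermediate filament protein nestin. Their neuroblast progeny migrate towards the olfactory bulb and rely on microtubule proteins of the doublecortin family, whereas MAP2 stabilises the microtubules of dendrites once a neuron has matured. In such dissected tissue, a change in the number of cells of a type and a change of RNA per cell cannot be told apart.

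The measurement is the density of a spot on a scanned film, in arbitrary units that reached 60307 on the lysolecithin array and 60348 on the NaCl array, leaving out 1 deviant spot (Chrd). The deposited workbook also gives the density of the film around each spot, called the local background. The workbook's header describes an array for neurogenesis and stem cells and a project that refers to day 5, whereas the labels name an array of neurotrophic genes and day 4. Whether the workbook's arrays carried the labelled RNA could not be determined, which touches every value. By the authors' calls, 58 of the 263 genes were present in the NaCl sample and 55 in the lysolecithin sample, and 49 in both. Every spot they called present was denser than its own local background. Whether the calls require this was not determined, so it is no check on them.

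The members did not behave as a group. Nes and Stmn1 stood clear of the film around them on both arrays and were within 1.5-fold. Dcx was above its surroundings on the lysolecithin array only. Dcamkl1 was denser on the lysolecithin array by about as much as the film around it. Mtap2 was below its local background on both arrays. Of the 5 members, 2 (Dcx and Dcamkl1) were at least 1.5-fold higher on the lysolecithin array, where 16.1% of the 62 genes with a ratio or a bound were, and 0 were at least 1.5-fold lower, where 6.45% were. Mtap2 has no ratio but is counted among the 5, whereas the 62 leave out every gene called absent on both arrays. The folds were taken after subtracting each array's lowest density and dividing by the mean of Gapdh and Ppia. Among the 3 members called present on both arrays (Nes, Dcamkl1 and Stmn1), 1 was higher and 0 were lower by that measure, where 12.2% and 6.12% of the 49 genes were. That 1 gene is Dcamkl1, whose direction turned with the background. With each spot's local background subtracted, the 5 members gave 1 higher (Dcx) and 1 lower (Dcamkl1). All 63 genes with a value then gave 10 higher (15.9%) and 21 lower, in place of 10 and 4 of 62. The 3 members called present on both arrays gave 0 higher and 1 lower, and no matching share of the 49 genes is given. Without Dcx and Dcamkl1, the 2 members past 1.5-fold, the count is 0 by construction. They lie side by side in a darker area of film.

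**Figure D1:**
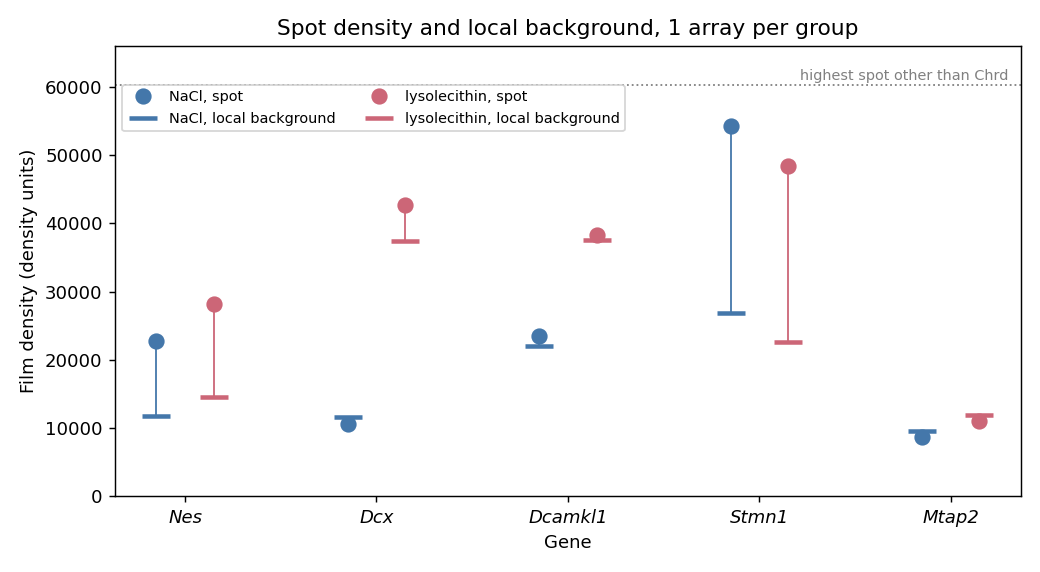
Film density (vertical axis, density units) of the spot (circle) and of its local background (bar) for each of the 5 genes on the NaCl array and the lysolecithin array; the dotted line is the highest spot of the lysolecithin array other than Chrd. Nes and Stmn1 stand far above their local background on both arrays, Dcamkl1 lies close to it on both, Dcx moves from below it to above it, and Mtap2 lies below it on both.

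Nes encodes nestin, the intermediate filament protein of neural stem and progenitor cells. Its spot measured 22771 units in the NaCl sample and 28174 in the lysolecithin sample. The film around it measured 11792 and 14604 units. Spot and surrounding film were thus both denser on the lysolecithin array, and by nearly the same factor, 1.24 for the spot and 1.24 for the film. The density was 1.93 times the local background on both arrays, with a change of -0.103% between them. The excess of the spot over the film was 10979 units with NaCl and 13569 with lysolecithin. The difference of 2590 units was the 16th highest of the 263 genes and lay within the 5th to 95th percentile of the 258 other genes, from -4747 to 2926 units. After scaling, the log2 ratio of Nes was 0.43, a fold of 1.35. All 8 spots around Nes were denser on the lysolecithin array too, but only 3 of the 8 had a larger excess over their own local background there. The median local background of these 8 spots was 9188 units with NaCl and 10474 with lysolecithin, under that of Nes itself. Measured from that median, the excess of Nes was 13582.5 units with NaCl and 17699 with lysolecithin.

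Dcx encodes doublecortin, which binds microtubules in migrating neuroblasts and is widely used to mark them. Its spot had a density of 10540 on the NaCl array, below its local background of 11568, and was called absent there. On the lysolecithin array the density was 42717, above a local background of 37465, and the spot was called present. That local background was itself denser than some spots called present there, such as Slit1 at 16390 units. The part of the darker film in the change of call was not tested. Dcx therefore passed from 0.911 times its surroundings to 1.14 times. The film around the spot was itself 3.24 times as dense on the lysolecithin array, the highest such factor of the 263 genes. Of the 32178 units by which the spot was denser, the surrounding film was denser by 25897, and the excess over local background differed by the remaining 6280 units. That difference was the 5th highest of the 263 genes, above the 95th percentile of the others. With Dcx absent on the NaCl array only a bound can be given, against a floor of 14958 units, the density of S100b. S100b was the lowest gene called present there once Igf1 and Vegfa, dimmer genes whose deposited report signals depart from their densities, were left out. Against this floor Dcx was at least 4.70-fold higher on the lysolecithin array, a log2 bound of 2.23, and with those genes kept the bound was 3.48. The bound is on the scale that subtracts only the array's lowest density, so it includes the darker film. With the local background subtracted it was 2.60 on the log2 scale, on a floor of only 905 units (Atoh1).

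Dcamkl1 encodes a kinase with doublecortin domains that binds microtubules in developing neurons. Its spot measured 23460 units in the NaCl sample and 38337 in the lysolecithin sample. The film around it measured 21965 and 37522 units. The spot was called present on both arrays, yet it was only 1.07 times as dense as the film around it with NaCl and 1.02 times with lysolecithin. The spot was denser by 14877 units with lysolecithin, and the film around it by 15557. The excess over local background was 1495 units with NaCl and 815 with lysolecithin, a difference of -680.4 units, the 190th highest of the 263 genes. The log2 ratio was 0.96, a fold of 1.95, with the lowest density subtracted, and -0.81 with the local background subtracted. No direction is given for Dcamkl1, since it turns with the background.

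Dcamkl1 and Dcx are neighbouring spots, the 10th and 11th of the 4th of 24 lines of 12 spots. The local background was higher on the lysolecithin array at all 8 spots around Dcamkl1 and at 7 of the 8 around Dcx, all but Chrd. Over the 8 spots around Dcx its median log2 ratio was 0.78, and over all 263 genes it was 0.12. The spots touching Dcx showed how far the darker film went with the spot values. Dlg4, the gene of a postsynaptic scaffold protein, went from 17929 to 41129 units while the film around it went from 12409 to 35947. The excess of Dlg4 over the film was 5520 units with NaCl and 5181 with lysolecithin. Cdk5rap3 went from 31276 to 34193 while its local background went from 17056 to 29485. Efnb1, an ephrin ligand, was the neighbour most like Dcx, called absent at 13706 on the NaCl array and present at 44493 on the lysolecithin array. Its excess over local background differed by 6506 units. Of the 8 spots around Dcx only 2, Efnb1 and Chrd, had a larger excess on the lysolecithin array. The part of the darker film in the differences of Dcx and Dcamkl1 was not tested.

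**Figure D2:**
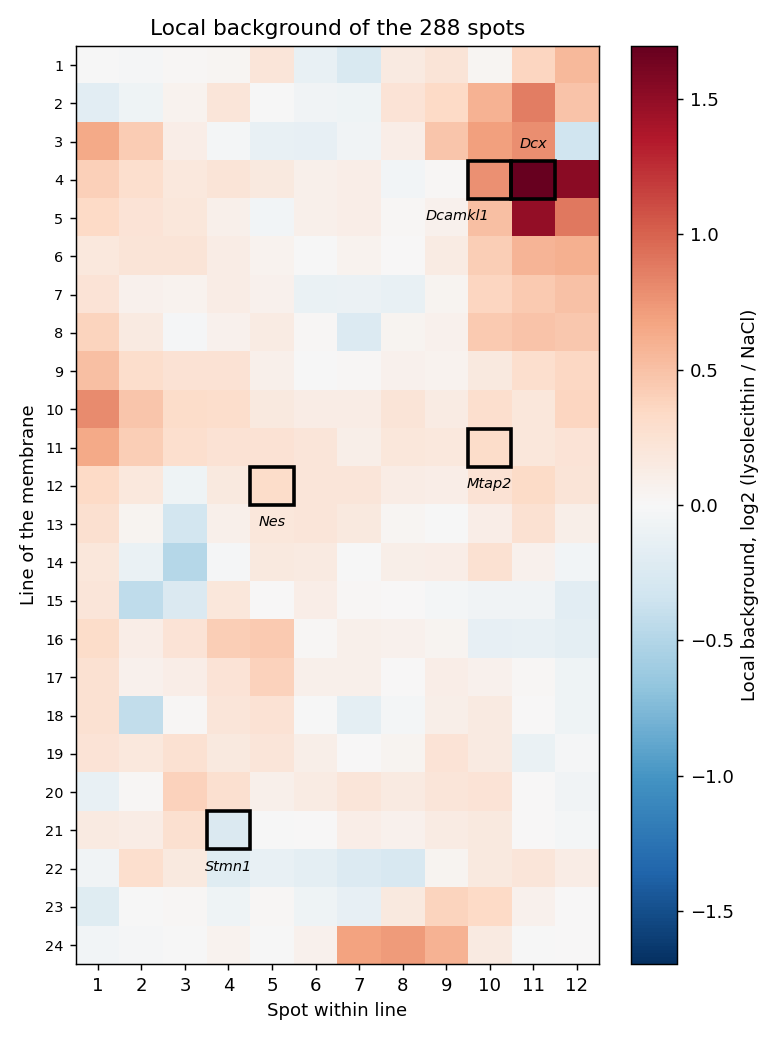
Map of the membrane (24 lines of 12 spots) coloured by the log2 ratio of local background, lysolecithin over NaCl, with the 5 genes boxed. The darkest red spots lie around Dcx, the highest of the 263 genes at 1.70, and Dcamkl1 at 0.77 lies beside it, while Nes (0.31), Mtap2 (0.31) and Stmn1 (-0.25) lie elsewhere.

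Stmn1 encodes stathmin, which binds tubulin and promotes the disassembly of microtubules, and it is abundant in neuroblasts. Its spot measured 54218 units in the NaCl sample and 48331 in the lysolecithin sample. The film around it measured 26866 and 22631 units. Stmn1 was the only member whose spot was paler with lysolecithin, as was the film around it. The density was 2.02 times the local background with NaCl and 2.14 times with lysolecithin. The excess over local background was 27352 and 25699 units, a difference of -1653 units that lay within the 5th to 95th percentile of the other genes. The log2 ratio was -0.16, a fold of 0.893. The Stmn1 spot was at 89.8% of the highest density other than Chrd with NaCl and at 80.1% with lysolecithin. Whether differences are compressed at such densities was not tested. The median local background of the 8 spots around Stmn1 was 11007 units with NaCl and 11800 with lysolecithin, well under its own.

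Mtap2 encodes MAP2, the microtubule-associated protein of dendrites. Its spot had a density of 8753 on the NaCl array, under a local background of 9616. On the lysolecithin array the density was 11080, under a local background of 11951. The spot was below the surrounding film on both arrays and was called absent on both, so no fold is given. The excess was -863.1 units with NaCl and -870.3 with lysolecithin, and thus differed by -7.18 units. All 8 spots around Mtap2 were denser on the lysolecithin array as well. Among them Mtap1b, which encodes another microtubule-associated protein of neurons, was called absent on both arrays, while Lmx1a and Neurog3, which encode transcription factors, were called present on both.

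**Figure D3:**
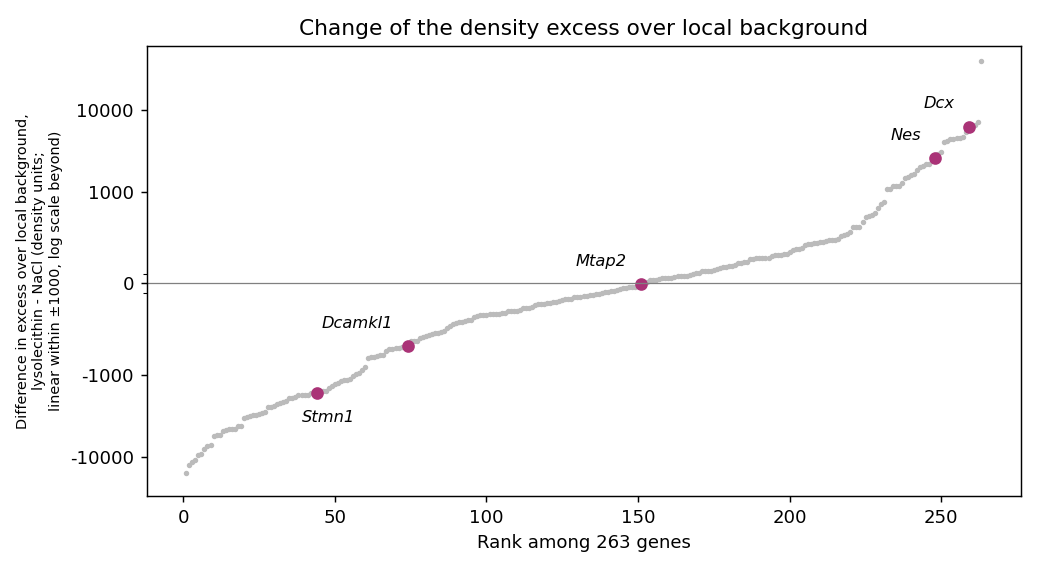
Difference between the arrays in excess over local background (vertical axis, lysolecithin minus NaCl, density units, log scale beyond the middle) for 263 genes in rank order, with the 5 genes labelled. Dcx (6280 units) and Nes (2590 units) lie near the upper end, Mtap2 close to 0, and Dcamkl1 and Stmn1 (-680.4 and -1653 units) in the lower part.

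Compared by lineage step, the progenitor gene had a log2 ratio of 0.43, the neuroblast genes had -0.16 for Stmn1, 0.96 for Dcamkl1 (-0.81 with local background subtracted) and a bound of 2.23 for Dcx, and the mature neuron gene was not above its local background. The 3 neuroblast genes thus spanned the whole range, and no order of the steps can be read from these arrays. The longer marker lists add few measured genes. Of 5 progenitor genes described, Nes alone was called present on either array, and Hes5, Notch2, Pax6 and Sox3 were absent on both. Of 10 neuroblast genes, the 3 members were the only ones present on either array, and the 7 others (Dlx5, Dpysl3, Neurod1, Neurog1, Neurog2, Robo1 and Robo2) lay between 0.959 and 1.15 times their local background with NaCl and between 0.959 and 1.10 times with lysolecithin. Of 4 mature neuron genes Dlg4 was present on both arrays, with a log2 ratio of 1.69 that became -0.027 with local background subtracted, and Ache, Grin1 and Mtap2 were absent. Most lineage genes were called absent, which leaves each step resting on 1 to 3 genes. Absence was not always a low density. Ache measured 18200 units with NaCl and 19328 with lysolecithin, under local backgrounds of 20850 and 21364.

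Of 17 genes listed for the cytoskeleton and neuronal migration, 1 of which (Robo1) was also on the neuroblast list, 4 were called present on both arrays and 13 were absent on both and have no ratio. Cdk5rap3, Nrp2 (a semaphorin receptor) and Slit1 (a repellent of migrating neurons) had log2 ratios of 0.18, -0.19 and 0.14. With local background subtracted these were -1.53, -0.15 and -0.038, and Cdk5rap3, which touches Dcx in the darker film, was then past 1.5-fold lower. The fourth, Ntn1 (the guidance cue netrin), is given no direction. Its NaCl spot was at 96.8% of the highest density on the film, it was marked as bleeding on both arrays, its excess over local background was 12374 units with NaCl and 16595 with lysolecithin although the spot itself was paler, and its deposited report signal does not follow from its density. The median log2 ratio of the 4 was -0.029, against 0.036 over the 49 genes present on both arrays. With local background subtracted it was -0.096 against -0.15. These medians include Ntn1, at -0.24 and at 0.49 with local background. With Ntn1 left out the middle ratios are 0.14 (Slit1) and -0.15 (Nrp2), so the sign on the main scale depends on Ntn1. Absent members of this list included Cdk5 and Pafah1b1 (the lissencephaly gene Lis1), both needed for neuronal migration. For other cells of the dissected tissue, 1 of 4 oligodendrocyte lineage genes was present, Olig1, at 1.98 times its local background with NaCl and 1.95 times with lysolecithin. Like Nes it kept its ratio to the film around it, and its log2 ratio was 0.32. The only astrocyte gene, S100b, was at 1.34 times its local background with NaCl and 1.25 times with lysolecithin. It was called present with NaCl and absent with lysolecithin, at nearly equal densities of 14958 and 15017 units. No microglial or endothelial gene of the lists was on the array. The part of other cell types in the members' values was not tested.

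**Figure D4:**
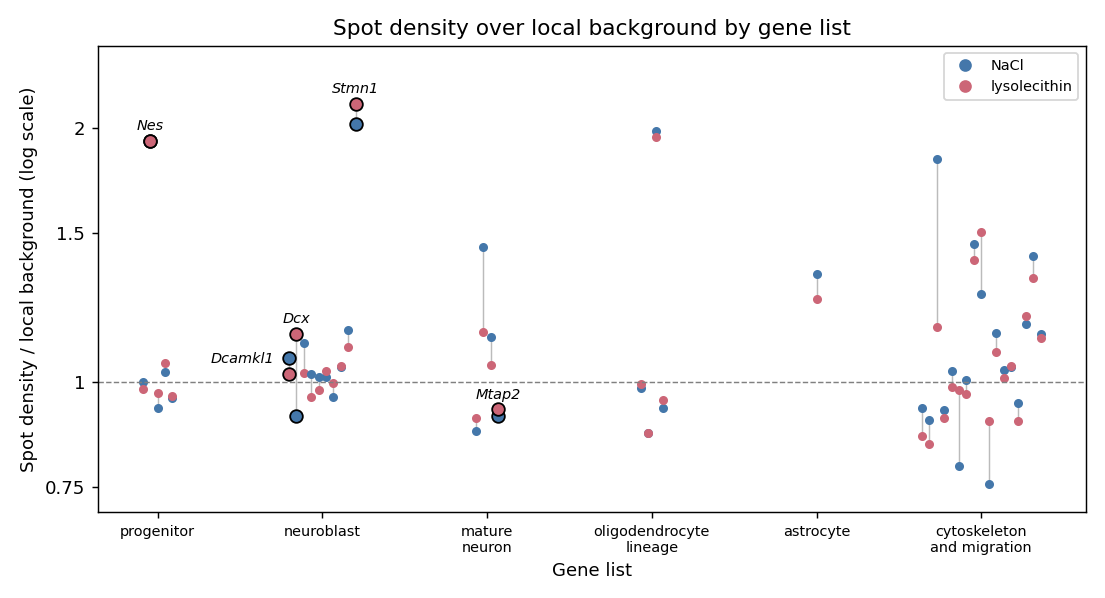
Spot density divided by local background (vertical axis, log scale) on both arrays for the genes of each marker list, with the 5 genes of interest outlined and named; the dashed line marks a spot no denser than its surroundings. Nes lies at 1.93 on both arrays and Stmn1 at 2.02 and 2.14, while Dcamkl1, Dcx and Mtap2 lie between 0.910 and 1.14, within the range of the genes called absent.

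The genes nearest to each member in log2 density over the 2 arrays also differed from one member to the next. Nes was nearest to Sema5a (23271 and 28273 units on the NaCl and lysolecithin arrays) and then to Epm2a, and Stmn1 to Runx3 (53936 and 49230 units) and then to Numb. These 4 genes were called present on both arrays. Mtap2 was nearest to Rfng and Sema3e, both absent on both arrays. Dcx was nearest to Efnb1 and then to Zic2, which went from 12973 to 27055 units, and both were called present on the lysolecithin array only. The film around both was denser there too. It went from 13390 to 37671 units for Efnb1 and from 15912 to 25537 for Zic2. Dcamkl1 was nearest to Acsl6 and Neurog3. With 2 arrays this likeness rests on 2 values per gene.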

How the data were processed

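RNA of 2 subventricular zone samples, 1 per group, was amplified from 1 µg, labelled with biotin and put on membrane arrays, and GEArray Expression Analysis Suite 2.0 read the film, all per the labels. The deposited workbook gives an intensity per spot, the average density, and an intensity of its local background for 288 spots, per the file headers. It also gives present or absent calls and, per the file headers, a report signal per array and a ratio, which was not used. The other deposited table (2 columns, spots without names) was not used.

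Densities were reduced by the array's minimum, 7301 units for NaCl and 8256 for lysolecithin, and scaled to the mean of the control genes Gapdh and Ppia, most of whose spots were near the film's ceiling. A gene present on 1 array was given a bound against the lowest gene present on the other, leaving out 8 genes whose report signals depart from their densities by over 1e-06. Threshold: 1.5-fold. Members and lists were chosen with earlier results of these data known. The named genes are the members, listed genes, and neighbours in place or level. One item of the lists is not reported here. Accessions matched RefSeq (GRCm38.p6) for 4 members, and Mtap2 matched as a synonym. The number of arrays limits the precision. The arithmetic was tested on simulated data. Python 3.11.15, NumPy 2.4.6, pandas 2.3.3 and matplotlib 3.10.9 were used.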

Additional observations from a re-analysis of the deposited data

How the results depend on the processing

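Each log2 ratio was recomputed under other backgrounds and scalings. A value was taken as moved when it differed by over 0.27, the SD between 9 repeated control spots. Of these spots 6 were near the film's ceiling. A Gapdh spot off the ceiling had a log2 ratio of -0.63, against 0.038 and 0.039 for the other Gapdh spots, and widened the SD. A value within this tolerance is thus not shown to be unchanged. Nes and Stmn1 kept their sign under every setting, from 0.16 to 0.52 for Nes and from -0.43 to -0.026 for Stmn1. The lowest value of each, with the median of genes present on both arrays set equal, was only just within the tolerance. The bound of Dcx was 1.54 without background subtraction, 2.60 with local background, 2.70 with the median local background of the 8 surrounding spots, and 3.48 with the floor taken over all genes called present. The log2 ratio of Dcamkl1 turned to -0.81 with local background and to -0.70 with that of the surrounding spots, and the members past 1.5-fold were then 1 higher and 1 lower. For local background the control factor of the main scale was kept, since the mean excess of the Gapdh spots was -739.6 units on the lysolecithin array. The count of 2 members past 1.5-fold was 1 at 2-fold and 1 among members present on both arrays. No share over all genes is given at 2-fold. Without Dcx and Dcamkl1 the count was 0 by construction, since they are the 2 members counted. Over all genes the main split was 10 higher and 4 lower, against 10 and 21 with local background, 8 and 1 without background subtraction, and 7 and 14 with the median of genes present on both arrays set equal, where the median log2 ratio moved from 0.036 to -0.23. Mtap2 has no ratio under any setting. The surrounding-spot background, the floor over all genes and the count without 2 members were chosen after seeing the data. No paired analysis was possible because there is only 1 array per group.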
